A study of Mus musculus with 6 samples.

Results

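EpCAM, the matriptase and prostasin proteases, their Kunitz-type inhibitors and neighbouring membrane proteases form a group of 8 listed genes. A row annotated to exactly 1 of these symbols was found for 7 of them, out of 19938 measured genes: Epcam, St14, Prss8, Tmprss2, Tmprss4, Spint1 and Spint2. Each had a single such row, so no choice between rows was needed. F2rl1, the gene of protease-activated receptor 2, was found in no annotated row and was not analysed here. The arrays were made from small intestine of embryos shortly before birth (E18.5). There were 3 samples of a conditional knockout of E-cadherin (labelled E-cadherin cKO, called cKO here) and 3 control samples (labelled wildtype). The sources used here do not name the Cre driver, the deleted exons, the litters or the sex of the embryos.

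EpCAM is a cell surface protein of epithelia that binds claudin-7 and keeps claudins in the junctional membrane. Matriptase, the product of St14, is a type II transmembrane serine protease that can cleave EpCAM, and it acts in a mutual activation loop with prostasin, the glycolipid-anchored protease encoded by Prss8. The inhibitors HAI-1 (Spint1) and HAI-2 (Spint2) hold both proteases in check. In humans, loss of EPCAM or of SPINT2 causes congenital tufting enteropathy, an intestinal failure of newborns. Tmprss2 and Tmprss4 encode further type II transmembrane serine proteases of epithelia. Protease-activated receptor 2, among other receptors, is switched on when proteases of this kind cut its outer end.

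Sequence just before the annotated start was held for 4 of the 8 listed genes in a RefSeq table (GRCm38.p6). The 3 shown are those of the gene that changed least (Epcam), of 1 inhibitor (Spint1) and of the protease that rose (Tmprss2). Each run covers the 250 bases before the start, 5′ to 3′ on the gene's strand. The Epcam run is chr17:87635729-87635978 (plus strand), the Spint1 run chr2:119237110-119237359 (plus strand) and the Tmprss2 run chr16:97611196-97611445 (minus strand). Capitals mark matches, on either strand, to 5 short motifs chosen with the expression values known: ACCGGT, the core bound by grainyhead-like factors of epithelia, TGANTCA of AP-1, CAGGTG, an E-box bound by Snail and Zeb factors, GGGCGG, the GC box, and TATAAA, the TATA box.
Epcam: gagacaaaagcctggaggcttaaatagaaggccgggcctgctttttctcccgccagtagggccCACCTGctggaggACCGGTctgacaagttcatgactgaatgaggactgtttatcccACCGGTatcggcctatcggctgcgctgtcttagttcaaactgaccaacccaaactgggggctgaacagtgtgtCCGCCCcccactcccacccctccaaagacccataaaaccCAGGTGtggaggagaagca
Spint1: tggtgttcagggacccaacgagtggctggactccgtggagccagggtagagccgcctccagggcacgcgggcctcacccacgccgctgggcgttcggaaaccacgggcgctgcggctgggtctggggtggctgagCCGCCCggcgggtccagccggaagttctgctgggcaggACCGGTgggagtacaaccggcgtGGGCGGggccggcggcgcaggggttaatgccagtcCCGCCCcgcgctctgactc
Tmprss2: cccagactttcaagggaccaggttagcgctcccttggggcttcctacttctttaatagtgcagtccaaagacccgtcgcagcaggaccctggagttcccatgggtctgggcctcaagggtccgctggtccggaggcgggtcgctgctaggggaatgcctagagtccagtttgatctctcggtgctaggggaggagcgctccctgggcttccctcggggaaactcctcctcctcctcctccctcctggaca
ACCGGT occurred at 2 places before Epcam, 174 and 131 bases upstream of the start, and at 1 place before Spint1, 77 bases upstream. Of all 32851 windows of the same length in the table, 1.9% held this motif. CAGGTG occurred at 2 places before Epcam and at 3 before Spint2 (17.2% of all windows held it), and GGGCGG at 1, 3 and 3 places before Epcam, Spint1 and Spint2 (32.7%). The Tmprss2 window held none of the 5 motifs, and none of the 4 windows held TGANTCA or TATAAA, which 6.7% and 12.4% of all windows held. A match describes letters only, and the missing matches say nothing about any factor.

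The targeted gene was checked first. Cdh1, which encodes E-cadherin, read 9.70, 8.38 and 8.91 in cKO 1, 2 and 3, against 9.86, 9.82 and 10.15 in control 1, 2 and 3 (log2 expression). No cKO value reached the control range, though that of cKO 1 came close to it. The difference of -0.95 (SE 0.31) missed the threshold of 0.05 over all genes (limma adjusted p = 0.088), and by single arrays left out it ranged from -1.30 without cKO 1 (adjusted p = 0.012), the cKO array nearest to the controls, to -0.64 without cKO 2 (adjusted p = 0.15). Without any other single array the adjusted p was 0.16 to 0.26. Cdh1 passed with median centring (0.045), array weights (0.011) and without the dimmer 50% of genes (0.044).

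A second array stood apart on markers of another organ. On cKO 3 the 7 measured genes of pancreatic acinar cells had a mean of 10.60, against 5.76 to 6.16 on the other cKO arrays and 6.16 to 6.42 on the control arrays. None of these markers was at 0 on any array, their values summed on the linear scale to 409 to 13815 in cKO and 530 to 636 in controls, and Ctrb1, a chymotrypsinogen gene, reached 12.39 on cKO 3. Results for the 7 genes are therefore also given without cKO 1 and without cKO 3. The array medians ran from 6.17 to 6.50, and the lowest was that of cKO 2.

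**Figure D1:**
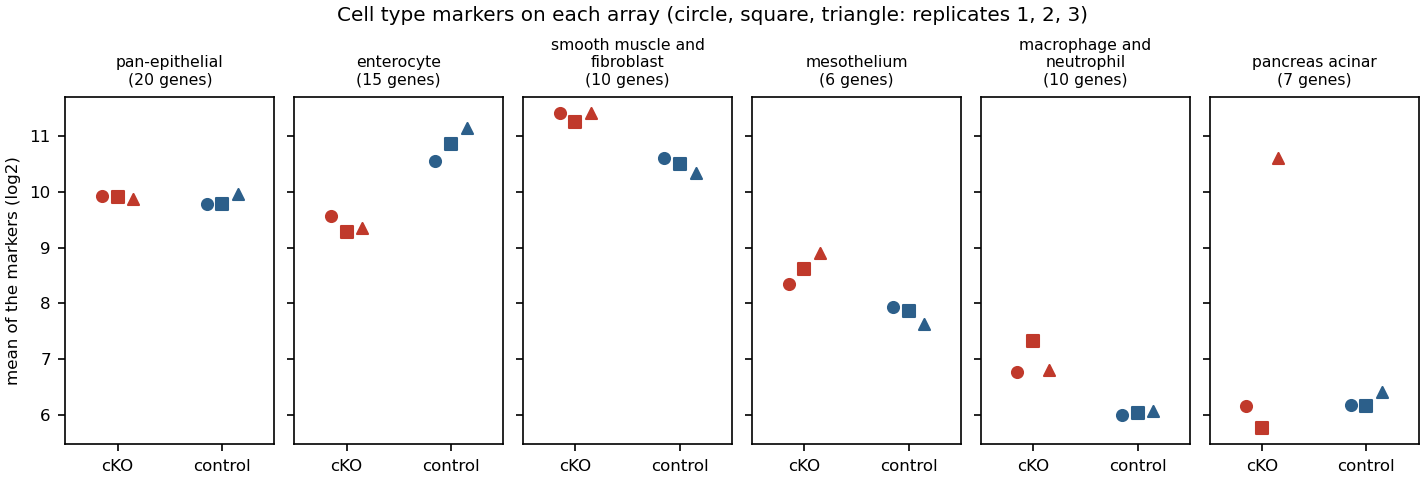
Mean log2 value of the measured markers of 6 cell types (y axis) on each cKO array and each control array (x axis), with 1 symbol per replicate. The pan-epithelial markers lie between 9.77 and 9.96 on all 6 arrays, enterocyte markers are lower on every cKO array, and the pancreatic markers are high only on cKO 3.

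Between cKO and control intestine 1 of the 7 genes rose and 1 fell. Tmprss2 rose to 4.36 times its control level and Prss8 fell to 0.419 times its control level. Epcam, St14, Tmprss4, Spint1 and Spint2 did not pass the threshold. By the same test 14.2% of all genes were called, 6.81% higher and 7.36% lower, and 1 gene of 7 called in each direction is too small a count to set against these shares. The groups did not overlap for 5 of the 7 genes, a pattern that 35.4% of all genes showed. The median difference of the 7 genes was -0.20, beside -0.09 over all genes. The median over all genes was nearer to 0 without cKO 2 (0.0067), with quantile normalization (-0.0094) and with cyclic loess (-0.018). All 7 lay above background on all 6 arrays, where background is the level that 95% of 1227 genes for odour, pheromone and taste receptors stay under (5.79 to 6.36 over the arrays). The median shift of these receptor genes from their control means was -0.37 on cKO 2, -0.06 on cKO 1 and -0.05 on cKO 3. Dim genes thus read lower on cKO 2.

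**Figure D2:**
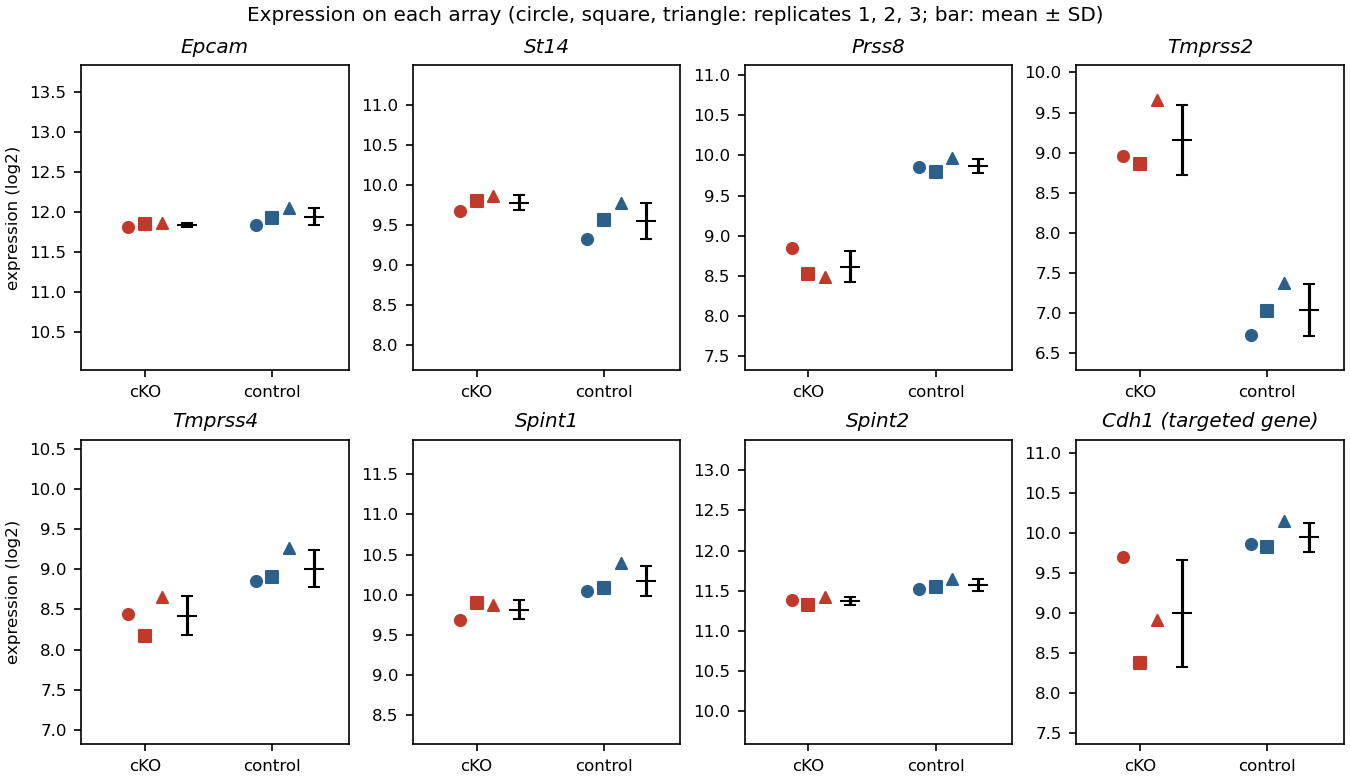
Log2 expression (y axis) of the 7 genes and of Cdh1 on each cKO array and each control array (x axis), with 1 symbol per replicate and the mean ± SD beside them. Every panel spans the same range of log2 values, so distances can be compared between panels. Tmprss2 lies higher and Prss8 lower on all 3 cKO arrays, while the groups overlap for Epcam and St14.

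Epcam gave a bright signal, at the 99.8th percentile of the mean array value over all genes, although probe brightness does not rank RNA amounts between genes. It read 11.81, 11.85 and 11.86 in cKO 1, 2 and 3, against 11.84, 11.93 and 12.05 in control 1, 2 and 3. The groups overlapped, and the 3 cKO values lay closer together than the control values. The mean was 11.84 ± 0.03 in cKO and 11.94 ± 0.11 in controls (SD, n = 3 each). The difference of -0.10 (SE 0.11, limma adjusted p = 0.59) had a 95% interval of -0.36 to 0.16, and its sign turned with quantile normalization (0.0225) and with cyclic loess (0.0716). The interval leaves room for a fold between 0.781 and 1.11. Without cKO 1 the difference was -0.085 and without cKO 3 it was -0.11.

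St14, the matriptase gene, read 9.67, 9.80 and 9.86 in cKO 1, 2 and 3, against 9.32, 9.56 and 9.77 in control 1, 2 and 3. The lowest cKO value lay below the highest control value, so the groups overlapped. The difference was 0.23 (SE 0.14, 95% interval -0.11 to 0.56, limma adjusted p = 0.35). It was 0.28 without cKO 1 (adjusted p = 0.28) and 0.19 without cKO 3 (adjusted p = 0.53).

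Prss8, the prostasin gene, read 8.84, 8.52 and 8.48 in cKO 1, 2 and 3, against 9.85, 9.79 and 9.97 in control 1, 2 and 3. The groups lay far apart, with even the highest cKO value well below the lowest control value. The mean was 8.61 ± 0.20 in cKO and 9.87 ± 0.09 in controls (SD, n = 3 each), a difference of -1.26 (SE 0.14, 95% interval -1.57 to -0.94, limma adjusted p = 0.0019). Prss8 was among the most negative 1.8% of all genes by difference. Without cKO 1 the difference was -1.37 (adjusted p = 0.0028) and without cKO 3 it was -1.19 (adjusted p = 0.0099).

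Matriptase and prostasin activate each other, so the changes of their genes were also set against each other, a comparison added after the data were seen. The change of Prss8 minus that of St14 was -1.48, and Prss8 lay lower relative to St14 on all 3 cKO arrays than on any control array. The exact two-sided permutation test gave p = 0.1, the smallest value that 3 against 3 arrays allow. Leaving out any 1 array gave values between -1.65 and -1.38.

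Tmprss2 encodes a trypsin-like protease of the apical membrane of epithelia, known for priming the spike proteins of respiratory viruses. It read 8.96, 8.86 and 9.66 in cKO 1, 2 and 3, against 6.72, 7.02 and 7.37 in control 1, 2 and 3. Every cKO value lay well above every control value, and the highest was that of cKO 3. The mean was 9.16 ± 0.44 in cKO and 7.04 ± 0.33 in controls (SD, n = 3 each), a difference of 2.12 (SE 0.25, 95% interval 1.53 to 2.71, limma adjusted p = 0.0025). By size of the increase it ranked 36 among all 19938 genes. Without cKO 3, the array with high pancreatic markers, the difference was 1.87 (adjusted p = 0.0060), and without cKO 1 it was 2.22 (adjusted p = 0.0071).

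Tmprss4, whose product is a related epithelial protease also known as channel-activating protease 2 in mouse, read 8.44, 8.17 and 8.66 in cKO 1, 2 and 3, against 8.85, 8.91 and 9.27 in control 1, 2 and 3. The cKO values all lay below the control values, the nearest pair by less than the SD of either group. The difference was -0.59 (SE 0.17, 95% interval -0.99 to -0.18, limma adjusted p = 0.066). The call changed with the processing: it passed with median centring (adjusted p = 0.039), without the dimmer 50% of genes (0.028) and under 4 other alternatives, and the adjusted p with 1 array left out was 0.070 to 0.20. Without cKO 1 the difference was -0.60 and without cKO 3 it was -0.71.

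Of the inhibitors, Spint1 read 9.68, 9.89 and 9.87 in cKO 1, 2 and 3, against 10.05, 10.08 and 10.39 in control 1, 2 and 3. The groups did not overlap, and the difference of -0.36 (SE 0.14, 95% interval -0.68 to -0.04) had an adjusted p of 0.13 with limma. Spint2 read 11.38, 11.32 and 11.42 in cKO 1, 2 and 3, against 11.52, 11.54 and 11.65 in control 1, 2 and 3, again with no overlap. Its difference was -0.20 (SE 0.11, 95% interval -0.44 to 0.05, limma adjusted p = 0.27). Without cKO 1 the inhibitors differed by -0.29 (Spint1) and -0.20 (Spint2), and without cKO 3 by -0.39 and -0.22. Neither inhibitor gene passed the threshold with any 1 array left out.

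Among the cKO arrays 5 of the 7 genes were highest on cKO 3, as were 33.9% of all genes, and among the controls all 7 were highest on control 3, as were 42.3% of all genes. The mean of 20 pan-epithelial markers was lowest on cKO 3 among the cKO arrays, at 9.88, and highest on control 3 among the controls, at 9.96. With that mean subtracted on each array, Prss8 differed by -1.32 (limma adjusted p = 0.00090) and Tmprss2 by 2.06 (adjusted p = 0.0013). Epcam differed by -0.16 (adjusted p = 0.41) and Tmprss4 by -0.65, which then passed (adjusted p = 0.038). The subtracted mean includes the keratin genes Krt8, Krt18, Krt19 and Krt20, which themselves rose (0.91, 1.19, 0.77 and 1.61). It also includes Cdx1, Cdx2 and Hnf4a, which fell (-0.60, -0.79 and -0.88). A mean without these genes was not taken, so the values hold for this marker list only.

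How the proteases and inhibitors shifted beside Epcam was tested on the difference between each gene and Epcam on the same array, with a limma fit over all 19937 other genes. In that fit 12.6% of all genes were called, 7.48% higher and 5.08% lower. Tmprss2 rose relative to Epcam by 2.22 (SE 0.22, 95% interval 1.71 to 2.73, limma adjusted p = 0.00081) and Prss8 fell by 1.16 (SE 0.15, 95% interval -1.51 to -0.81, adjusted p = 0.0023). The groups did not overlap for any of the 6 genes once Epcam was subtracted, as for 31.8% of all genes, and each then had an exact permutation p of 0.1, the smallest possible.

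The remaining 4 genes did not pass relative to Epcam. The shift of St14 exceeded that of Epcam by 0.33 (95% interval 0.02 to 0.63, limma adjusted p = 0.16). Tmprss4 differed from Epcam by -0.49 (95% interval -0.86 to -0.11, adjusted p = 0.094), Spint1 by -0.26 (95% interval -0.56 to 0.04, adjusted p = 0.27) and Spint2 by -0.10 (95% interval -0.38 to 0.19, adjusted p = 0.71). The array noise of Epcam enters every gene of this fit, so its p-values are not independent between genes.

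**Figure D3:**
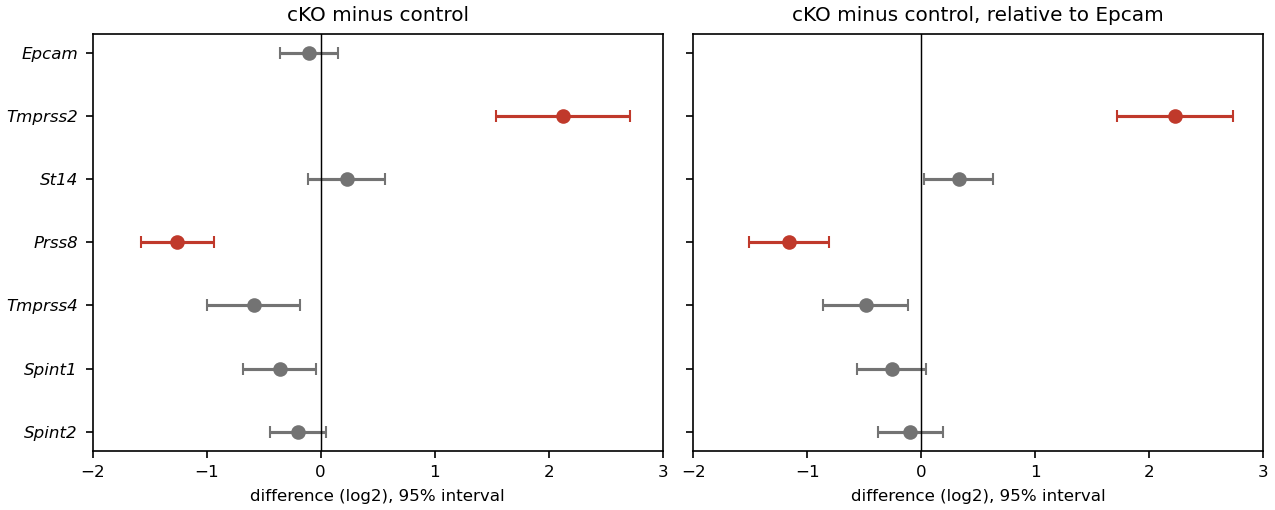
Difference cKO minus control on the log2 scale (x axis) with limma's 95% interval for each gene (y axis), as measured on the left and after subtracting Epcam on the same array on the right. Coloured points passed the threshold in that fit and grey points did not. Tmprss2 stands far to the right (2.12 and 2.22) and Prss8 to the left (-1.26 and -1.16) in both panels.

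The samples were whole intestine, in which fewer cells of a type and less RNA per cell cannot be told apart. Beside the changes of Prss8 and Tmprss2, 10 of 15 enterocyte markers fell and 0 rose (array means 9.28 to 9.56 in cKO and 10.55 to 11.14 in controls). Their values summed on the linear scale to 25731 to 26636 in cKO and 45338 to 63387 in controls, and no marker was at 0. All 10 smooth muscle and fibroblast markers rose (sums 28914 to 31819 in cKO and 16980 to 19961 in controls), as did 4 of 6 mesothelial markers (3129 to 3839 in cKO and 1599 to 2152 in controls) and 5 of 10 macrophage and neutrophil markers (1595 to 2453 in cKO and 1148 to 1212 in controls). Of these last 5, Cd68 was above background on all 6 arrays, Adgre1 on 4, Itgam and Ly6g on 3 and S100a8 on 1. Ly6g read 6.52, 9.27 and 6.54 in cKO 1, 2 and 3. Of 20 pan-epithelial markers 4 rose and 3 fell (34071 to 35228 in cKO and 28774 to 32717 in controls). Those that rose were the keratin genes Krt8, Krt18, Krt19 and Krt20, and those that fell were Cdx1, Cdx2 and Hnf4a. Unlike the sums, the array means of the log2 values overlapped (9.88 to 9.92 in cKO and 9.77 to 9.96 in controls). None of the markers in these 4 lists was at 0 on any array. The part of these cell types in the changes of Tmprss2 and Prss8, or in those of the neighbouring genes given below, was not tested.

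Stratified epithelium, mast cells and goblet cells also express membrane proteases or tryptases. Of 10 squamous markers 2 rose (sums 1504 to 2135 in cKO and 775 to 832 in controls), and 5 were not above background on any array. The 2 were Sprr1a, with means of 9.62 in cKO and 5.43 in controls, and Krt14, with 8.80 and 8.02. The rise of the sums was largely that of Sprr1a. Krt5 (0.24), Trp63 (0.02) and Krt4 (-0.39) did not pass. Of 8 mast cell markers 0 passed the threshold with limma, and 5 were not above background on any array (540 to 614 in cKO and 498 to 583 in controls). At an unadjusted p under 0.05 there was 1, and the share of all genes under that cutoff was not taken. Of 7 goblet cell markers 1 rose and 1 fell (6759 to 7574 in cKO and 7265 to 8550 in controls). No marker of these lists was at 0, and their part in the results was not tested.

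The neighbouring genes were read from 6 lists, beside 14.2% called and a median of -0.09 over all genes. Of 20 measured type II transmembrane proteases 1 rose (Tmprss2) and 1 fell, with a median difference of -0.19, and 10 of the 20 were not above background on any array. The gene that fell was Hpn, which encodes hepsin, at 6.38 ± 0.17 in cKO and 8.54 ± 0.05 in controls (SD, n = 3 each), a difference of -2.15 (SE 0.12, limma adjusted p = 0.00050). Its cKO values were above background but near it, at 6.33 on cKO 1 against a background of 6.25 there. Tmprss3 differed by -0.27 (adjusted p = 0.47), and by -0.0083 without cKO 2. Of 9 glycolipid-anchored or tryptase-like genes 1 rose and 2 fell, among them Prss8, with a median of -0.19. Prss32 read 9.21, 8.93 and 9.04 in cKO 1, 2 and 3, against 7.65, 7.35 and 7.78 in control 1, 2 and 3, with no overlap between the groups. It rose by 1.47 (SE 0.15, limma adjusted p = 0.0016). Tpsg1, the transmembrane tryptase gene, was above background on 2 of the 3 cKO arrays and fell by 1.05 as measured (adjusted p = 0.0029).

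Of 16 measured inhibitors of trypsin-like proteases 0 passed the threshold with limma, Spint1 and Spint2 included, with a median of -0.15. At an unadjusted p under 0.05 there were 7, but the share of all genes under that cutoff was not taken, so the count has no reference. Of these 16 genes 4 were not above background on any array. Spink4, an inhibitor gene of goblet cells, differed by -0.39 (limma adjusted p = 0.12) and its groups did not overlap. Tfpi differed by -0.02 (adjusted p = 0.94) and Serpinb6b by -0.18 (adjusted p = 0.49), and the groups overlapped for both.

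Receptors and signalling partners were measured for 9 of 10 listed genes, of which 3 rose and 1 fell, with a median of 0.26. F2r, the gene of the thrombin receptor (protease-activated receptor 1), read 9.37, 9.37 and 9.39 in cKO 1, 2 and 3, against 8.39, 8.57 and 8.32 in control 1, 2 and 3. The cKO values were nearly equal and all lay above the controls. F2r rose by 0.95 (SE 0.11, limma adjusted p = 0.0026). F2rl2 was not above background on any array. Arrb1 and Arrb2, which encode the beta-arrestins that bind activated receptors, rose by 0.58 (adjusted p = 0.020) and 0.71 (adjusted p = 0.034), and Gna11, a G protein subunit gene, fell by 0.48 (adjusted p = 0.031). Gnaq, whose product couples the receptors to calcium release, differed by 0.26 (adjusted p = 0.20).

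The calls of the arrestin genes and of Gna11 were lost when single arrays were left out. Arrb1 was not called without cKO 3, control 2 or control 3 (limma adjusted p = 0.071, 0.097 and 0.077). Arrb2 was not called without cKO 2, cKO 3, control 1, control 2 or control 3 (adjusted p = 0.072, 0.11, 0.068, 0.13 and 0.12). Gna11 was not called without cKO 2, cKO 3, control 1, control 2 or control 3 (adjusted p = 0.054, 0.11, 0.088, 0.12 and 0.10).

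EpCAM's partners split. Of 15 measured genes of the EpCAM family and its partners 5 rose and 1 fell, with a median of 0.31. Cldn7, the claudin that binds EpCAM directly, read 10.83, 10.59 and 10.69 in cKO 1, 2 and 3, against 10.79, 10.94 and 11.08 in control 1, 2 and 3. The groups overlapped, and the difference was -0.23 (95% interval -0.53 to 0.07, limma adjusted p = 0.28). Other claudins moved further: Cldn4 rose by 3.08 (SE 0.16, adjusted p = 0.00038) and Cldn3 by 1.17 (SE 0.12, adjusted p = 0.0017). Cldn1, a sealing claudin, read 4.98, 6.26 and 5.88 in cKO 1, 2 and 3, against 7.81, 7.97 and 7.28 in control 1, 2 and 3. It was above background on 1 of the 3 cKO arrays and fell by 1.98 as measured (SE 0.33, adjusted p = 0.0088).

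The tetraspanin gene Cd9 rose by 1.13 (SE 0.12, limma adjusted p = 0.0017), Cd44, an adhesion receptor that associates with EpCAM, by 1.88 (SE 0.16, adjusted p = 0.00080), and Fhl2, which encodes a partner of the cleaved EpCAM tail, by 1.39 (SE 0.16, adjusted p = 0.0023). Tspan8, another tetraspanin gene, differed by 0.32 (adjusted p = 0.12) and Cldn2 by -0.41 (adjusted p = 0.16). Tspan8 passed under 4 alternatives, among them quantile normalization (0.50, adjusted p = 0.027) and cyclic loess (0.47, adjusted p = 0.033).

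**Figure D4:**
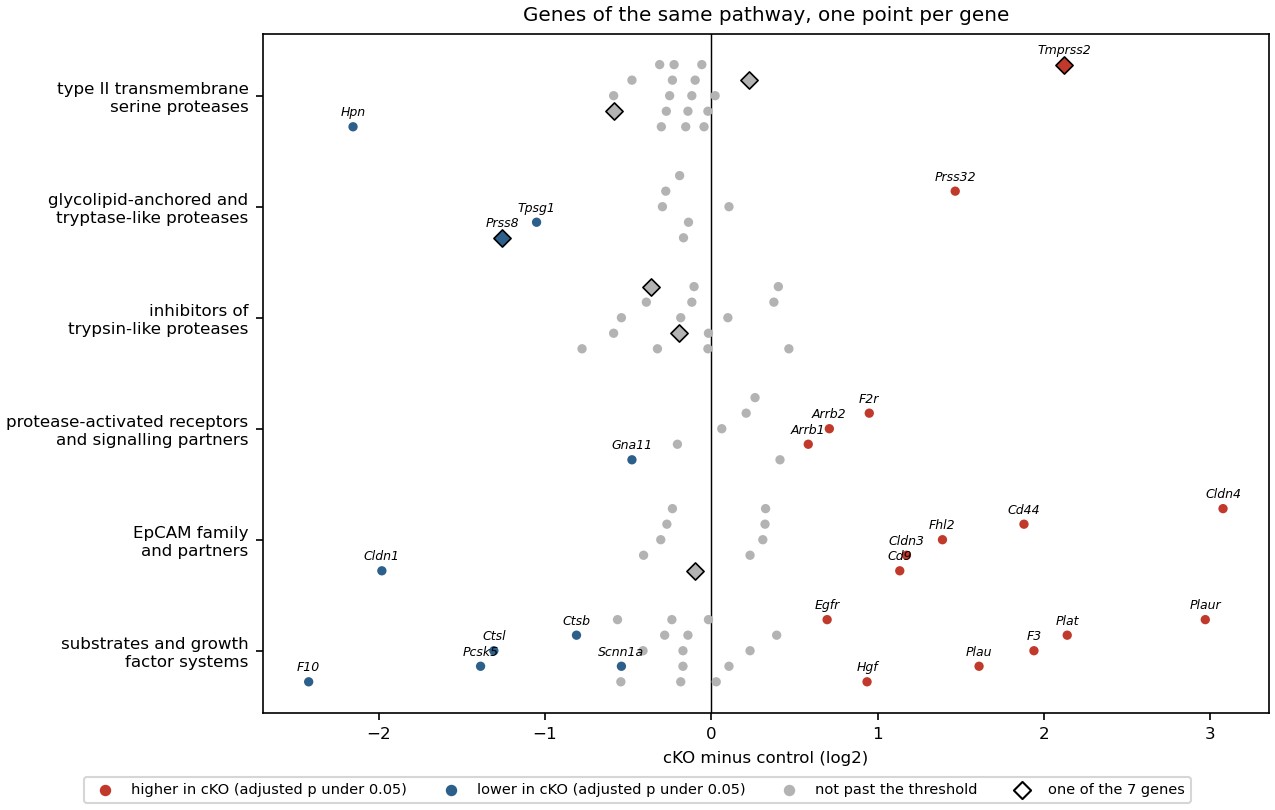
Difference cKO minus control on the log2 scale (x axis) for every measured gene of 6 lists around EpCAM and the membrane proteases (y axis), 1 point per gene, with those past the threshold named. Diamonds are the 7 genes. The inhibitor list has no gene past the threshold, whereas Tmprss2, Prss32 and Cldn4 lie far to the right of their lists.

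Among 25 substrates and neighbouring systems 6 rose and 5 fell, with a median of -0.17. Urokinase, which matriptase can activate, belongs here: Plau read 9.07, 9.11 and 9.06 in cKO 1, 2 and 3, against 7.64, 7.39 and 7.38 in control 1, 2 and 3. The groups did not overlap, and Plau rose by 1.61 (SE 0.12, limma adjusted p = 0.00065). Its receptor gene Plaur was at background on all control arrays, and the cKO mean was 6.53-fold above that background level. As measured it was 8.98 ± 0.58 in cKO and 6.01 ± 0.10 in controls (SD, n = 3 each, limma adjusted p = 0.0011). Plat, the tissue plasminogen activator gene, rose by 2.14 (adjusted p = 0.00061) and F3, the tissue factor gene, by 1.94 (adjusted p = 0.0026), each with 1 of 3 control arrays above background.

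F10, the coagulation factor X gene, fell by 2.42 (SE 0.21, limma adjusted p = 0.0010), and Pcsk5, which encodes a proprotein convertase, by 1.39 (adjusted p = 0.0037). Ddr1, a collagen receptor gene, differed by 0.39 (adjusted p = 0.072) and passed under 8 alternatives, which include the 3 other scalings of the arrays (adjusted p = 0.038 to 0.0496) and leaving out cKO 2 (0.043). Hgf, Scnn1a, Egfr, Ctsb and Ctsl were chosen after their values were seen. Egfr differed by 0.70, Ctsb by -0.81 and Ctsl by -1.31 (limma adjusted p = 0.013, 0.0076 and 0.0070). Hgf, a growth factor that matriptase can activate, was at background on all control arrays, and its cKO mean was 1.69-fold above that background level. As measured it was 7.03 ± 0.21 in cKO and 6.09 ± 0.16 in controls (SD, n = 3 each, adjusted p = 0.0070). Scnn1a, a subunit of the sodium channel that prostasin activates, was above background on 0 of 3 cKO arrays and 2 of 3 control arrays, so no fold is given (5.82 ± 0.09 in cKO and 6.36 ± 0.24 in controls, SD, n = 3 each, adjusted p = 0.049). That call was lost when any 1 cKO array, control 2 or control 3 was left out (adjusted p = 0.096, 0.091 and 0.094 without cKO 1, 2 and 3, and 0.16 and 0.15 without control 2 and 3).

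The genes most like Epcam, St14 and Prss8 in their values were found by Pearson's r over the 6 arrays among 13620 genes above background. With 6 arrays in 2 groups such values are a description of these arrays. For Epcam they were Dctn3 (0.992), Prdm16 (0.990) and Ptprh (0.988). For St14 they were Zfc3h1 (0.992), Ctss (0.982) and Igsf11 (0.979). For Prss8 they were Kdf1, Tmem86b and Swt1, all at 0.999.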

How the data were processed

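Biotin-labelled whole-transcript targets, per the labels' protocols, were hybridised to Affymetrix Mouse Gene 1.0 arrays. For each array the authors deposited 35512 values, one per probe set. The authors processed the arrays in dChip, per the series design text. The dChip version, normalization and genome build are not stated there. The deposited values, between 0 and 14.07, were read as log2 expression from their range, and folds rest on that reading.

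The platform annotation gave 21789 probe sets a single gene symbol and 1621 several, and did not list 12102. Symbols were updated by gene identifier for 21698 of them, and the brightest probe set of a gene was kept (19938 genes). Groups were compared with limma 3.58.1 in R 4.3.3 (two-sided, no covariate, all 6 arrays), with Benjamini-Hochberg adjustment over all genes and a threshold of 0.05. The errors of differences are moderated SEs. The fit was tested on simulated data. Named list genes were drawn, per list, from up to 6 past the threshold by p and up to 3 others by level. Some genes that qualified are not named. F2rl2, Hgf, Scnn1a, Egfr, Ctsb and Ctsl were added outside this rule. Members and lists were chosen with earlier results of these data known. Whether the samples are separate embryos is not stated. The p-values therefore cover the spread among these 6 arrays, which may be technical. The number of arrays limits the precision.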

Additional observations from a re-analysis of the deposited data

How the results depend on the processing

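Values for the 7 genes were recomputed under 17 alternatives each, 119 in all: 111 kept their direction and side of the threshold, 6 passed it and 2 changed sign. Not all of these could change the direction. The brightness filters, the probe set settings, trend and robust eBayes and the replicate block left each difference as it was, so there only the threshold was tried. Prss8 and Tmprss2 were called under each of the 17 alternatives, and the count of 2 genes called with 1 array left out stayed at 2. Epcam changed sign with quantile normalization (0.0225) and cyclic loess (0.0716). Tmprss4 passed with median centring (-0.57), with the pan-epithelial mean subtracted (-0.65), and, at its unchanged difference of -0.59, without the dimmest 25% or the dimmer 50% of genes, with an intensity trend and robust eBayes, and with the replicate block. Relative to Epcam, Tmprss4 passed with quantile normalization (-0.57), cyclic loess (-0.65), array weights (-0.22), without the dimmer 50% of genes and with trend and robust eBayes (both -0.49), and St14 passed with array weights (0.37). The cause was not tested. Array weights did not fully converge.

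The 2825 genes called became 5834 with array weights and 1870 by probe set, where more rows were tested. They were 1226 to 2713 with 1 array left out, with 1226, 1505 and 1517 without control 2, control 3 and cKO 3. With 1 array left out, differences lay between -0.15 and -0.05 for Epcam, 0.11 and 0.34 for St14, -1.37 and -1.19 for Prss8, 1.87 and 2.29 for Tmprss2, -0.71 and -0.46 for Tmprss4, -0.42 and -0.25 for Spint1 and -0.22 and -0.16 for Spint2.

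The titles number the replicates 1 to 3 in both groups. Deviations of same-numbered arrays from their group means correlated at -0.08, 0.13 and 0.14 over all genes. Differently numbered arrays were not compared, so these values do not decide whether the numbers mark pairs. The main fit took no pairs, and a fit with the replicate number as a block was run as an alternative. With the replicate block Tmprss4 passed (adjusted p = 0.047), Arrb1, Arrb2, Gna11 and Scnn1a did not (0.057, 0.060, 0.080 and 0.062), and 2212 genes were called. With quantile normalization and cyclic loess Gna11 (adjusted p = 0.14 and 0.066) and Scnn1a (0.089 and 0.088) were lost, and Scnn1a also with median centring (0.051) and trend and robust eBayes (0.052). By probe set Arrb1, Arrb2, Gna11 and Scnn1a were lost (0.054, 0.090, 0.072 and 0.11), and with the pan-epithelial mean subtracted Arrb1 and Arrb2 (0.055 and 0.061). F2rl1 gave no value under any alternative because no row was annotated to it.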
